A study of Mus musculus with 16 samples.

Results

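The interferon response genes followed here are 34 genes that cells switch on, or switch on more strongly, when they sense type I interferon. They were listed by name, and 32 of the 34 have a probe set of their own, among 18193 genes so measured on 16 Affymetrix mouse arrays of 45101 probe sets. A probe set is a group of short probes that reports 1 transcript. Each gene is represented by its probe set of highest mean log2(intensity + 16) over the arrays. That choice of probe set uses mean level, not a difference between groups. The list itself was drawn up with earlier results of these data known. Isg15, a ubiquitin-like protein that is joined to other proteins, was covered only by a probe set annotated to more than 1 gene, so it has no value here, and Ifi44 was not analysed here.

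RNA came from 4000 to 7000 sorted mouse bone marrow cells per sample, and the study asked how mutations in mitochondrial DNA relate to the ageing of blood-forming cells. All mice were C57Bl6 and labelled female, and replicates were labelled biological. Young hematopoietic stem cells (HSC, the cells from which all blood lineages arise) came from wild-type mice of 9 to 12 weeks on 3 arrays, and old HSC from wild-type mice of 24 months on 3 arrays. Mutator HSC came from mice of 32 weeks with the genotype Polgtm1Lrsn-/- on 3 arrays, and their controls from wild-type mice of 32 weeks, Polgtm1Lrsn+/+, on 3 arrays. The Polg allele replaces the mitochondrial DNA polymerase by a form without proofreading in every cell of the mouse, so that marrow and stem cells carry it alike. Common lymphoid progenitors (CLP, marrow cells on the way to lymphocytes) came from wild-type mice of 8 to 12 weeks, with 2 arrays sorted as Ly6D+ and 2 as Ly6D-.

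Type I interferons bind a receptor of the chains IFNAR1 and IFNAR2, whose kinases activate STAT2. STAT2 and IRF9 are parts of a complex that binds interferon-stimulated response elements in promoters, and the genes it turns on make proteins that sense foreign nucleic acid, block translation, trap or degrade viral products, or feed back on the pathway. HSC are known to hold a standing level of many of these genes, and interferon is known to drive quiescent HSC into division.

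Promoters are shown for the members of smallest p in mutator against 32-week wild-type HSC that have an entry in the RefSeq promoter table (build GRCm38.p6). Each runs 5′ to 3′ on the gene's own strand, from 250 bases before the annotated start to 50 after it. They are Trim25 at chr11:88999153-88999452 on the plus strand, Rsad2 at chr12:26456403-26456702 on the minus strand, and Ifit1 at chr19:34640639-34640938 on the plus strand. Gbp3 lies at chr3:142559794-142560093 and Irf9 at chr14:55603735-55604034, both on the plus strand and each the first of 2 entries. Capitals mark matches on either strand to GAAANNGAA, a core shared by interferon-stimulated response elements and IRF sites. Overlapping matches run together. Of several entries for a gene, that with most matches was shown, and the first listed where they tied.
Trim25: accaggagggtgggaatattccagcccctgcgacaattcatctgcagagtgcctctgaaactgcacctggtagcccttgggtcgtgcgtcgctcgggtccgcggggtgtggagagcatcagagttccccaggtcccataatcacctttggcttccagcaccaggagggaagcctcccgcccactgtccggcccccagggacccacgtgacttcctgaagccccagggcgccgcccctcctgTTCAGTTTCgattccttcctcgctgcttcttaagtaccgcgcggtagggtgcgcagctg
Rsad2: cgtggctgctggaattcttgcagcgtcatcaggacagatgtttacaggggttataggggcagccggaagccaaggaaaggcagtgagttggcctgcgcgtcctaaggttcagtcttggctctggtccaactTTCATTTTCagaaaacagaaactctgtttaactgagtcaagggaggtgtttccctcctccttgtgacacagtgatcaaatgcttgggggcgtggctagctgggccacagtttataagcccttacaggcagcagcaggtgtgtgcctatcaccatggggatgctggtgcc
Ifit1: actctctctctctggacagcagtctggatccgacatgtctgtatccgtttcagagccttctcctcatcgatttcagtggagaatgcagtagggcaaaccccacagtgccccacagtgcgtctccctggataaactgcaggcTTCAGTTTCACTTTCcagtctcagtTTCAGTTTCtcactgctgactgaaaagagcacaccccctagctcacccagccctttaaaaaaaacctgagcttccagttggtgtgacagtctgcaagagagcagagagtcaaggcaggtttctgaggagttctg
Gbp3: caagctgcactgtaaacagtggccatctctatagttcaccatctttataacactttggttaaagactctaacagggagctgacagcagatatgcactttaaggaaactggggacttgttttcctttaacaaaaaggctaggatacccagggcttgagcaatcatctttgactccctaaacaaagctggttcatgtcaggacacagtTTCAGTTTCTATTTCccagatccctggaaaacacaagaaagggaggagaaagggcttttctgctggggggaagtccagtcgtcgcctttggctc
Irf9: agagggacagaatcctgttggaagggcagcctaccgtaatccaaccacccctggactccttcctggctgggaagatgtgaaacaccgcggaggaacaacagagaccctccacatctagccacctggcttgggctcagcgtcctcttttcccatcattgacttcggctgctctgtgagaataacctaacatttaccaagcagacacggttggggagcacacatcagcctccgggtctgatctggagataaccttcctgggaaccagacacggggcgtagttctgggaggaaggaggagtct

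Ifit1 held 3 matches, Gbp3 held 2, Trim25 and Rsad2 held 1 each, and this Irf9 window held 0. The other entries of Gbp3 and Irf9, not shown, held 0. The match in Trim25 began 9 bases before the start, and that in Rsad2 began 119 before it. Those of Ifit1 began 109, 103 and 84 bases before the start, and those of Gbp3 began 44 and 38 before it. Of the 34 members, 25 had an entry, and 13 of them (52%) held a match in at least 1 entry, against 9.76% of 27025 genes in the table. Counted by promoter, 41.9% of 31 member promoters and 8.56% of 32851 promoters of the same length held one. The motif TTCNNNGAA, the gamma-activated site bound by STAT dimers, occurred in 7 of the 25 members (28%) and in 9.55% of all genes in the table. These are letter matches only.

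Before the results, some arrays stood apart. The third 32-week wild-type array and all 4 CLP arrays carried little Xist (intensity 9.12 to 16.8, against 3507 to 11020 on the other arrays) and much of the Y-linked Eif2s3y (423 to 758, against 6.85 to 12.7), although all are labelled female. Spiked hybridisation controls were high on mutator array 1 and 32-week wild-type array 1, with BioB at 2283 and 2020, and on the CLP arrays (2505 to 3450), against 312 to 604 elsewhere. The 6 arrays of 32 weeks had a log2 ratio of 3′ to 5′ actin signal of 4.24 to 5.26, a sign of RNA or labelling quality, against 2.20 to 2.61 in young and old HSC. Polg intensity was 65.9 to 125 on the mutator arrays and 113 to 163 on their controls, but the allele changes the coding sequence and leaves a transcript in place, so this checks no label. Summed HSC markers were 8389 to 22280 on HSC arrays and 1839 to 3759 on CLP arrays, and summed lymphoid progenitor markers 135 to 345 and 16500 to 24900. Since each array reports a whole sorted population, fewer cells of a type and less RNA per cell cannot be told apart.

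Most of the 32 measured members were well above the 40th percentile of their array, the level used here for background (16.6 to 21.3 in intensity). Mx1, Bst2 and Oasl2 fell below it on 1 or more arrays. Across the 16 arrays, low values appeared mainly on the 32-week arrays, and in CLP some members were high and others low.

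**Figure D1:**
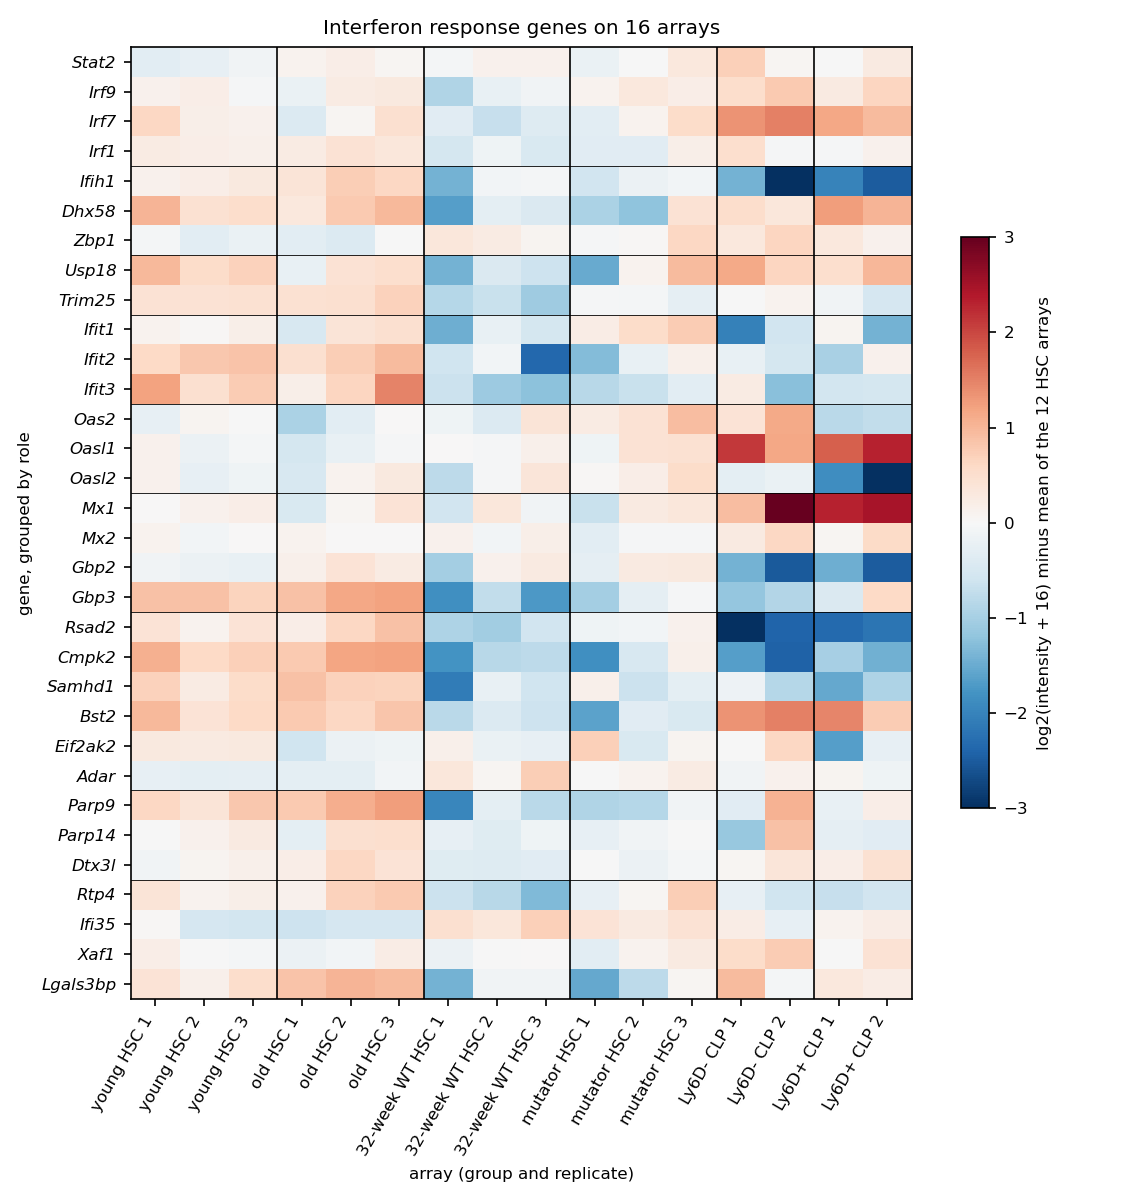
The 32 measured interferon response genes (vertical axis, grouped by role) on the 16 arrays (horizontal axis, by group and replicate), coloured by log2(intensity + 16) minus the mean of the 12 HSC arrays, with colours ending at 3 in each direction. Old and young HSC are mostly red, the 32-week wild-type arrays mostly blue, and in CLP Mx1 and Oasl1 are red while Rsad2, Ifih1 and Gbp2 are blue.

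Averaged over the list, the lowest values were on 32-week arrays, though mutator array 3 was not among them. The median of the 32 members, relative to the mean of the 12 HSC arrays, was 0.226, 0.142 and 0.187 on the log2 scale on the young arrays and 0.116, 0.433 and 0.481 on the old arrays. On the 32-week wild-type arrays it was -0.642, -0.220 and -0.286, and on the mutator arrays -0.259, -0.047 and 0.193. So the wild-type arrays all lay below the young and old arrays. Mutator array 1 lay within the wild-type range, and mutator arrays 2 and 3 lay above it. The CLP medians were 0.147 and 0.116 in Ly6D- CLP, and -0.032 and 0.133 in Ly6D+ CLP. Replicates were uneven too: the members' median SD between replicates was 0.143 in young and 0.240 in old HSC, against 0.350 in 32-week wild-type and 0.328 in mutator HSC.

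**Figure D2:**
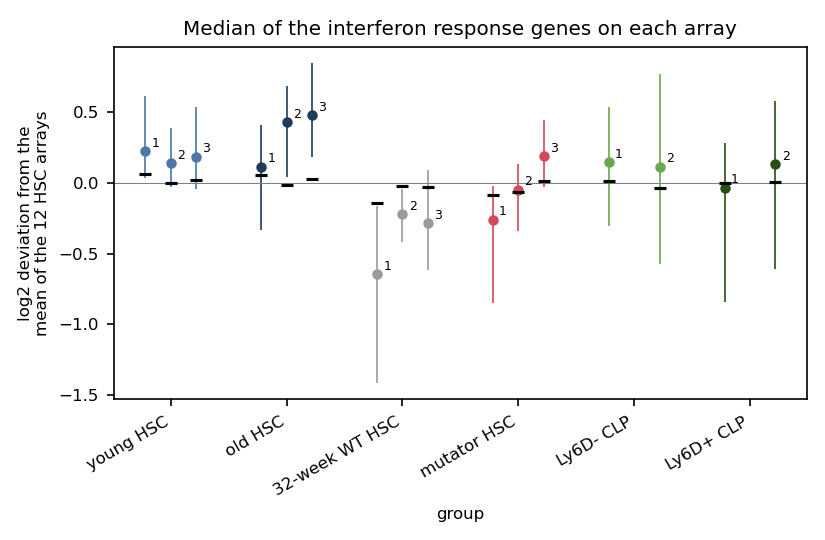
Median log2 deviation of the 32 members from the mean of the 12 HSC arrays (vertical axis) on each array, by group (horizontal axis), with the replicate number beside each point, bars from the lower to the upper quartile of the members, and short black lines at the median of all tested genes. The 32-week wild-type arrays lie at -0.642 to -0.220, below the young and old arrays.

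In mutator against 32-week wild-type HSC no interferon response gene passed the test, though most members had higher means in the mutator. Of the 32 members 25 had a positive log2 difference (78.1%, against 49.3% of the tested genes), and their median was 0.29 against -0.01 over all genes. With limma and Benjamini-Hochberg adjustment over 13481 genes, 0 members were called higher and 0 lower, and 0% of all tested genes were called higher and 0% lower. The smallest adjusted p among members was 0.521. At an unadjusted p under 0.05, 7 members were higher and 0 lower, where 4.06% of the tested genes were higher and 3.24% lower. Mutator arrays lay wholly above the wild-type arrays for 7 members and wholly below for 0, where 3.11% and 2.97% of the tested genes did so. Since the list was drawn up with earlier results of these data known, these shares describe it and are no test of it. A p that misses the threshold does not show equal levels: with 3 arrays a group the standard errors of the members named below were 0.14 to 0.50.

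The transcription factors came first in the pathway. Irf9, the DNA-binding part of the STAT complex, had intensities of 355, 410 and 380 on the mutator arrays and 168, 277 and 305 on the wild-type arrays. The groups did not overlap, and the difference was 0.62 ± 0.21 on the log2 scale (SE; limma adjusted p = 0.607). Irf7, the factor that amplifies interferon alpha production, read 98.4, 138 and 191 in mutator and 96.1, 71.0 and 92.5 in wild type. Mutator array 1 exceeded the highest wild-type array only narrowly, and the difference was 0.59 ± 0.27 (limma adjusted p = 0.682). Stat2, a signal transducer of the same complex, read 48.2, 56.5 and 75.5 in mutator and 55.2, 64.4 and 64.8 in wild type. Its groups overlapped and its difference was -0.04 (limma adjusted p = 0.984). Irf1, a factor shared with the interferon gamma response, differed by 0.20 and its groups overlapped.

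Trim25, a ubiquitin ligase that activates the RNA sensor RIG-I and also conjugates ISG15, had the smallest p of the list. Its intensity was 3708, 3639 and 3128 on the mutator arrays and 2080, 2370 and 1818 on the wild-type arrays. Every mutator array was above every wild-type array, with a difference of 0.74 ± 0.14 (limma adjusted p = 0.521). Usp18, the protease that removes ISG15 and dampens receptor signalling, read 49.2, 184 and 346 in mutator and 53.6, 121 and 106 in wild type. The mutator arrays spread over the whole wild-type range and beyond it, with a difference of 0.67 ± 0.50 (limma adjusted p = 0.843). The sensors of RNA and DNA Ifih1, Dhx58 and Zbp1 had differences of -0.01 to 0.24, and all overlapped.

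Among effectors, Ifit1, which binds viral RNA lacking the host cap marks, read 277, 353 and 409 in mutator and 75.6, 201 and 159 in wild type. The groups were apart, with the largest difference of the list at 1.24 ± 0.32 (limma adjusted p = 0.564). Its relatives Ifit2 and Ifit3 differed by 0.55 and 0.38 with overlapping groups. Rsad2, the enzyme viperin that makes a chain-terminating nucleotide, read 1425, 1483 and 1702 in mutator and 816, 758 and 1047 in wild type. These groups were also apart, at 0.81 ± 0.20 (limma adjusted p = 0.564), but a dimmer probe set of Rsad2 differed by -0.06. Its genomic neighbour Cmpk2, a mitochondrial nucleotide kinase, differed by 0.41 and overlapped.

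Rtp4, a chaperone of receptors that also restrains interferon responses, read 904, 1124 and 1812 in mutator and 686, 596 and 420 in wild type. Its groups were apart, at 1.12 ± 0.27 (limma adjusted p = 0.564), and mutator array 3 was the highest. A dimmer probe set of Rtp4 differed by 0.06. Gbp3, a guanylate-binding GTPase of cell-autonomous defence, read 418, 712 and 840 in mutator and 231, 509 and 248 in wild type. Wild-type array 2 was above mutator array 1, and the difference was 0.99 ± 0.30 (limma adjusted p = 0.602). Oas2, which makes the oligoadenylate messenger that activates RNase L, read 236, 268 and 382 in mutator and 175, 143 and 259 in wild type. It overlapped through wild-type array 3, at 0.59 ± 0.28 (limma adjusted p = 0.683).

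Dtx3l, a ubiquitin ligase that pairs with PARP9, read 778, 688 and 755 in mutator and 601, 598 and 619 in wild type. The groups were apart at a small difference of 0.28 ± 0.14 (limma adjusted p = 0.712), and another probe set of the gene differed by -0.01. Samhd1, which depletes deoxynucleotides, read 667, 377 and 491 in mutator and 127, 511 and 394 in wild type. Its difference of 0.71 ± 0.39 (limma adjusted p = 0.759) came with overlapping groups, and 3 of its other 4 probe sets had differences of -0.25, -0.23 and -0.11. The members with negative differences were Adar, Mx2, Ifi35, Bst2, Lgals3bp, Stat2 and Zbp1, of which Adar, the RNA-editing enzyme, was the most negative at -0.27. Of the 15 members with several probe sets, 8 had probe sets that differed in sign in this comparison.

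**Figure D3:**
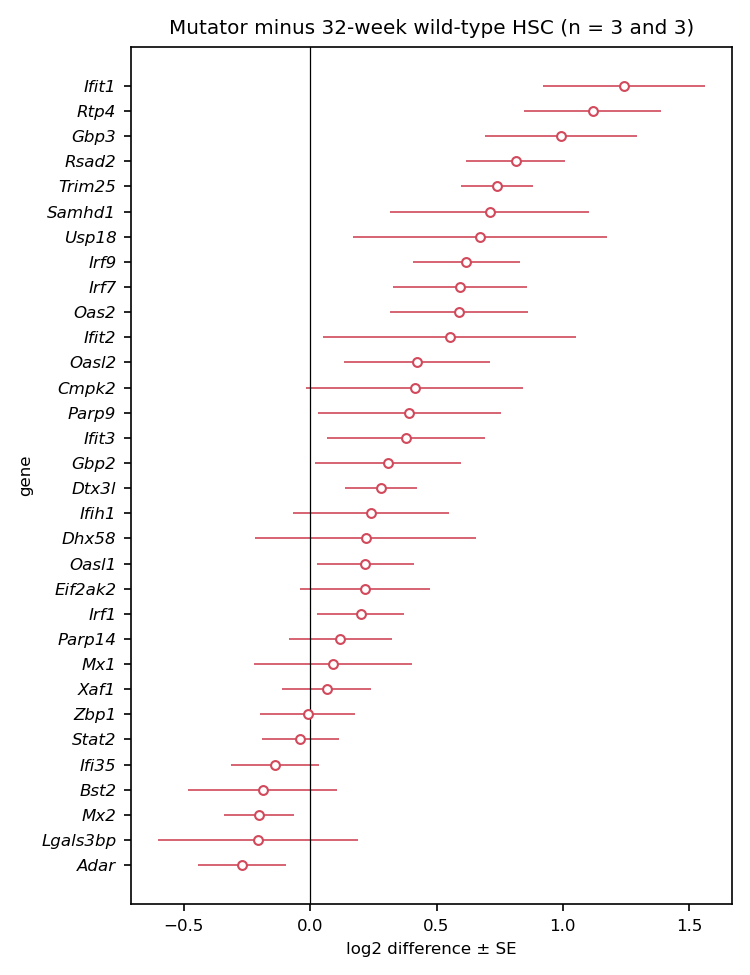
Log2 difference of mutator minus 32-week wild-type HSC (horizontal axis) for each of the 32 members (vertical axis, in order of the difference), with SE bars from limma and open points for an adjusted p of at least 0.05. All points are open, and 25 lie above 0, up to Ifit1 at 1.24.

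The count depended on wild-type array 2. Without 32-week wild-type array 2, Trim25 (0.84, adjusted p = 0.0275) and Gbp3 (1.34, adjusted p = 0.0349) passed the threshold in limma, and 221 genes were called in all. Without array 3, whose sex-linked transcripts go against its label, 0 members were called and the median was 0.35, with Trim25 at 0.65 and Rtp4 at 0.92. The members' median was 0.12 without wild-type array 1 and 0.14 without mutator array 3, against 0.29 with all arrays. Set against wild-type array 2 alone, the median of the members was 0.09. Between the arrays with high hybridisation controls (mutator 1 and wild type 1) 17 members were positive with a median of 0.10, and between the others 25 were positive with a median of 0.20. Within those others Rtp4 differed by 1.48, Gbp3 by 1.08, Ifit1 by 1.02, Rsad2 by 0.82 and Trim25 by 0.70, while Samhd1 differed by -0.06.

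Markers of other cells were compared beside these genes. The summed intensity of 12 monocyte and macrophage markers was 664 to 838 on the mutator arrays and 416 to 525 on the wild-type arrays, so those groups did not overlap. Ms4a6c gave most of that gap, at 298, 201 and 433 against 68.6, 82.8 and 119, and 0 of 11 tested markers of the list were called. Cx3cr1 and C1qc were near background in both groups. Summed plasmacytoid dendritic cell markers, of cells that make much interferon, were 1088 to 1622 and 1008 to 1370 and overlapped, and Ccr9 and Spib were below background in both. Stromal and endothelial markers summed to 168 to 317 in mutator and 348 to 753 in wild type. Col1a2 gave most of that gap, at 72.8, 180 and 87.3 against 588, 268 and 198. Of 4 tested markers of that list 0 were called, and Col1a1 and Cdh5 were below background in both groups. Neutrophil markers varied widely between replicates, with sums of 480 to 5278 in mutator and 487 to 5964 in wild type. The neutrophil gene S100a8 read 121, 1305 and 2455 on the mutator arrays and 164, 773 and 2104 on the wild-type arrays. Of 8 tested neutrophil markers 0 were called. The part of such cells in the members' differences was not tested.

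**Figure D4:**
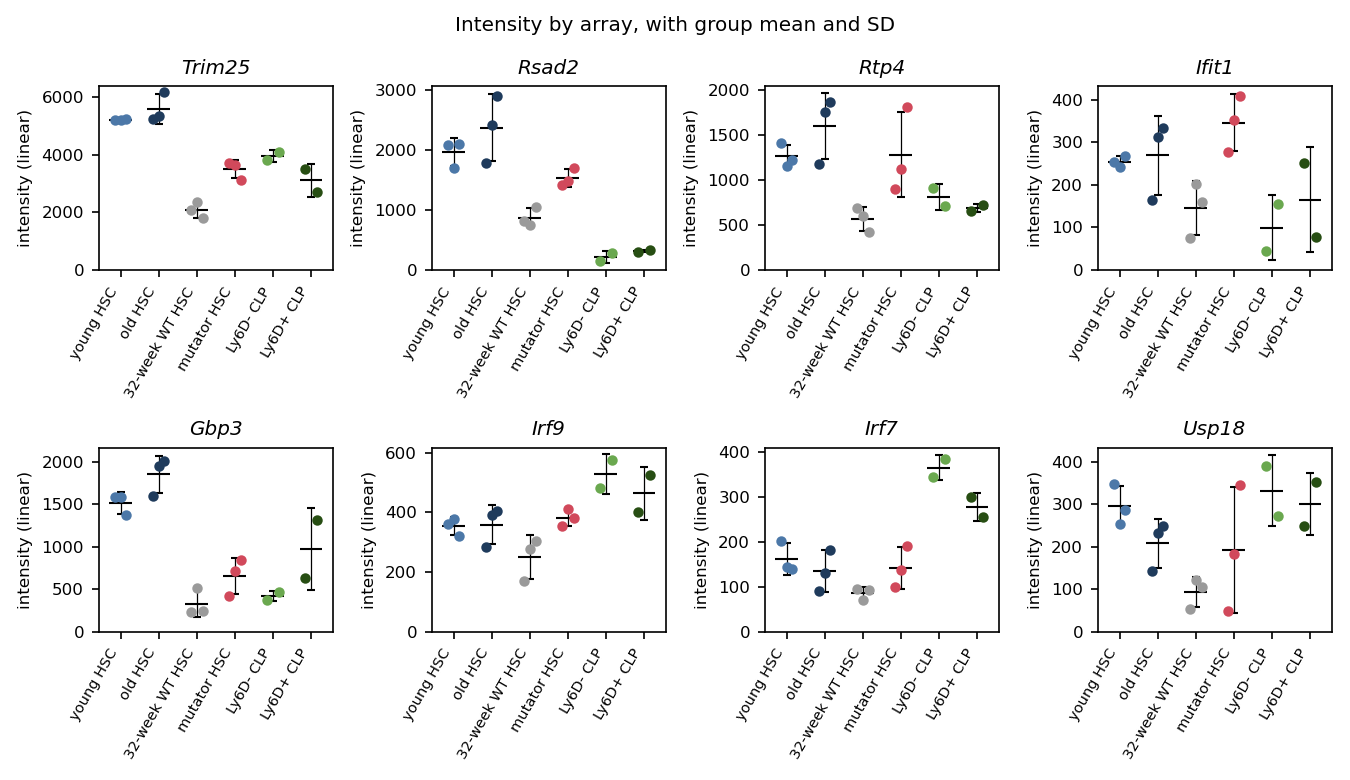
Intensity (vertical axes, linear, from 0) of 8 members on every array by group (horizontal axes), with points for arrays, a line at the group mean and bars of 1 SD. For Trim25, Rsad2, Rtp4 and Ifit1 the 3 mutator arrays lie above the 3 wild-type arrays of the same age, and for Trim25 and Gbp3 both 32-week groups lie below young and old HSC.

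No interferon response gene passed the test between old and young HSC. Of the 32 members 21 had a positive difference (65.6%, against 48.2% of the tested genes), with a median of 0.06. By limma, adjusted over all genes, 0 were called higher and 0 lower, where 1.05% of the tested genes were higher and 0.252% lower. At an unadjusted p under 0.05, 2 members were higher and 1 lower, where 5.07% and 3.96% of the tested genes were. The old arrays lay wholly above the young arrays for 8 members and wholly below for 2, where 14% and 13.2% of the tested genes did so. Dtx3l read 909, 1205 and 1041 in old and 726, 825 and 874 in young HSC, apart but at 0.37 ± 0.14 (limma adjusted p = 0.384). Eif2ak2, the kinase PKR that halts translation on sensing double-stranded RNA, read 54.7, 79.8 and 82.2 in old and 116, 114 and 116 in young HSC. Its old arrays lay below the young ones, at -0.59 ± 0.26 (limma adjusted p = 0.507), whereas its other probe sets differed by 0.15 and 0.29. Trim25 read 5239, 5333 and 6154 in old and 5182, 5179 and 5216 in young HSC. Rsad2 read 1789, 2422 and 2899 in old and 2089, 1698 and 2103 in young, and Rtp4 1180, 1749 and 1865 against 1405, 1155 and 1220. Both overlapped, and old array 1 was the lowest of the old arrays for each. With array weights 3 members passed as higher and 1 as lower, where 1879 of 13481 tested genes (13.9%) were called in all. In a fit of only these groups 2 passed as higher and 1 as lower, where 1007 of 12992 genes (7.75%) were called.

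The mutator effect minus the age effect, tested as 1 contrast over the 12 HSC arrays, called 0 members higher and 0 lower in limma, where 0.0519% of the tested genes were higher and 0.46% lower. At an unadjusted p under 0.05, 5 members were positive and 0 negative, where 3.44% and 4.29% of the tested genes were. Whatever their p, 23 of 32 members were positive (71.9%, against 50.6% of the tested genes), with a median of 0.20. Trim25 had the smallest p, at 0.64 ± 0.20 (limma adjusted p = 0.338), and Ifit1 followed at 1.22 ± 0.45 (limma adjusted p = 0.490). Ifit1 read 164, 312 and 333 in old and 253, 242 and 268 in young HSC, which overlapped. With array weights 1 member, Trim25, passed, and 483 genes (3.58%) were called in all. Of the 12 monocyte and macrophage markers 11 were positive in this contrast and 1 of 11 tested was called higher, and the part of such cells in the members' values was not tested.

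Between 32-week wild-type and young HSC, 13 interferon response genes were lower and 2 higher at 32 weeks. That is 46.9% of the members, against 17.7% of all tested genes called lower and 6.42% called higher, and the members' median was -0.65 against 0.03 over all genes (limma). The comparison uses the same wild-type arrays as the mutator comparison and the same young arrays as the age comparison. It also sets arrays of unlike actin ratio side by side, and age, batch and RNA quality cannot be told apart here. With the actin ratio as a covariate 0 members and 0 genes in all were called and the members' median was 0.05. At 9 members the count was lowest among the fits that left out 1 array, without young array 1 or without young array 3. Without the third wild-type array 11 were called and the median was -0.75. Adar, Ifit2 and Usp18 were near the threshold and lost their call without that array or without any single young array, and Usp18 also without wild-type array 1.

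Gbp3 fell most in 32-week wild-type against young HSC. It read 231, 509 and 248 at 32 weeks and 1588, 1592 and 1371 in young HSC, and the difference was -2.24 ± 0.30 (limma adjusted p = 0.000720). Cmpk2 read 103, 213 and 223 against 847, 608 and 653, at -1.93 ± 0.43 (limma adjusted p = 0.00807). Its chromosome 12 neighbour Rsad2 fell as well, at -1.16 ± 0.20 (limma adjusted p = 0.00216). Ifit3, which partners other IFIT proteins, read 39.0, 24.6 and 20.6 against 181, 105 and 131, at -1.81 ± 0.31 (limma adjusted p = 0.00236). Ifit2, next to it on chromosome 19, read 244, 357 and 61.4 against 576, 668 and 691, at -1.75 ± 0.50 (limma adjusted p = 0.0260). The third wild-type array set much of that size, and without it the difference was -1.08 and no longer passed (adjusted p = 0.0590).

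Parp9, an ADP-ribosyltransferase of the complex with DTX3L, read 176, 585 and 408 against 1119, 946 and 1277 in young HSC, at -1.62 ± 0.36 (limma adjusted p = 0.00836). Its neighbours Dtx3l and Parp14 on chromosome 16 differed by -0.40 and -0.37 and did not pass. Usp18 read 53.6, 121 and 106 against 348, 255 and 286, at -1.56 ± 0.50 (limma adjusted p = 0.0425). Trim25 read 2080, 2370 and 1818 against 5182, 5179 and 5216, at -1.32 ± 0.14 (limma adjusted p = 0.000262), the smallest p of the list. Every one of these wild-type arrays was below every young array. Bst2, the tetherin that holds budding virions on the cell, Rtp4, Samhd1, the RNA sensor regulator Dhx58 and Irf1 made up the rest of the 13, at -1.27, -1.15, -1.47, -1.47 and -0.57. For Samhd1 3 of its other 4 probe sets differed by 0.31, 0.36 and 1.07 in the opposite direction. The OAS family differed least, at -0.08 to 0.08, and none of its 3 measured members was called.

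Both members called higher at 32 weeks also had a probe set of opposite sign. Ifi35, an interferon-induced leucine zipper protein, read 2948, 2653 and 3447 against 2162, 1489 and 1432 in young HSC, at 0.84 ± 0.17 (limma adjusted p = 0.00558), but another of its probe sets differed by -0.65. Adar read 545, 440 and 719 against 357, 343 and 347, at 0.65 ± 0.17 (limma adjusted p = 0.0192), and another of its probe sets differed by -0.93. For 8 of the 15 members with several probe sets the signs differed between probe sets in this comparison. Summed HSC markers were 8389 to 11310 in 32-week wild-type and 13910 to 15740 in young HSC, with 4 of 10 called lower, and summed monocyte and macrophage markers were 416 to 525 and 703 to 1114, with 2 of 11 called lower. Summed conventional dendritic cell markers were higher, at 2620 to 3342 against 1637 to 2119, with 2 of 7 called higher. H2-Aa gave most of that gap, at 1894, 2165 and 1894 against 1004, 808 and 774. H2-Ab1 and H2-Eb1 overlapped between the groups, while Cd74 lay higher, at 152 to 273 against 111 to 132. The part of these markers' cells in the members' differences was not tested.

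Beyond the members, 125 genes of wider pathway lists (interferons, receptors, kinases, regulators and further targets) were measured. In mutator against wild-type HSC 0 of them were called and 80 were positive, where 49.3% of all tested genes were positive. These lists too were chosen with earlier results of these data known. Gbp7, a further guanylate-binding protein, came first with 1642, 1954 and 1832 against 1013, 1641 and 832, at 0.69 ± 0.24 (limma adjusted p = 0.608). In old against young HSC 1 was called, the DNA sensor Cgas, which read 507, 520 and 595 in old and 987, 934 and 909 in young, at -0.79 ± 0.13 (limma adjusted p = 0.0126). In 32-week wild-type against young HSC 29 of the 114 that passed the filter were lower (25.4%) and 3 higher (2.63%), beside 17.7% and 6.42% of all tested genes. They included 7 of 12 antigen presentation genes, all lower, such as the immunoproteasome subunit Psmb8 at -1.55. The interferon gamma receptor chain Ifngr1 fell by 1.08, and the STAT gene Stat5b by 1.91 on the log2 scale. Of 7 interferon genes with a probe set 2 passed the filter on low values and none was called in any comparison. Ifnb1, interferon beta itself, read 9.23 to 15.2 on the 16 arrays, not above background.

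Against young HSC, members were called in both directions in CLP, and so were the tested genes at large. In Ly6D- CLP 6 of 32 members were higher and 6 lower, where 9.55% and 14.9% of 14343 tested genes were. Their median was 0.02, against 0.03 over all genes. In Ly6D+ CLP 2 were higher and 10 lower, where 10.4% and 13.9% of the tested genes were. The median there was -0.30, against 0.04 over all genes. In each fraction 37.5% of the members were called in either direction. Both comparisons come from limma over all 16 arrays and share the 3 young arrays. All 4 CLP arrays carried sex-linked transcripts against their label, so sex, cell type and batch cannot be told apart in them, and no fit without such arrays exists.

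Mx1 and Oasl1 were the members that stood highest in CLP. Mx1, a dynamin-like antiviral GTPase that many laboratory strains carry in a defective form, read 79.7 and 531 in Ly6D- CLP, 232 and 262 in Ly6D+ CLP, and 35.0, 38.9 and 41.5 in young HSC. It rose by 2.07 ± 0.56 (limma adjusted p = 0.0157) and 2.27 ± 0.56 (limma adjusted p = 0.00922), and the Ly6D- value without array 2 was 0.82 and did not pass. Oasl1, which in mice restrains translation of Irf7, read 342 and 169 in Ly6D- CLP, 273 and 393 in Ly6D+ CLP, and 74.6, 57.0 and 63.6 in young HSC. Its rises were 1.67 ± 0.28 (limma adjusted p = 0.000821) and 2.09 ± 0.28 (limma adjusted p = 0.000116). Mx2, the relative of Mx1, read 30.2 to 58.9 over these arrays and was not called.

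Irf7, Zbp1, Xaf1 and Stat2 were the other members higher in Ly6D- CLP. Irf7 read 346 and 386 in Ly6D- CLP and 202, 144 and 140 in young HSC, at 1.12 ± 0.28 (limma adjusted p = 0.0111). Both Ly6D+ arrays, at 301 and 257, were also above the young arrays, at 0.74 (limma adjusted p = 0.0727). Without Ly6D- array 2 the difference of Irf7 in Ly6D- CLP was 1.04 and did not pass (adjusted p = 0.0737). Zbp1, a sensor of Z-form nucleic acid, rose by 0.67 ± 0.21 (limma adjusted p = 0.0312), from 57.4, 45.9 and 50.5 in young HSC to 78.8 and 104. Another probe set of Zbp1 differed by only 0.04. Xaf1, a pro-apoptotic interferon target, rose by 0.61 ± 0.20 (limma adjusted p = 0.0416), from 499, 425 and 413 to 637 and 742. Stat2 rose by 0.60 ± 0.20 (limma adjusted p = 0.0451), from 42.9, 45.9 and 52.7 to 104 and 60.4. These last 3 calls were near the threshold, and each was lost in several alternative fits. None of the 3 was called between the CLP fractions.

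**Figure D5:**
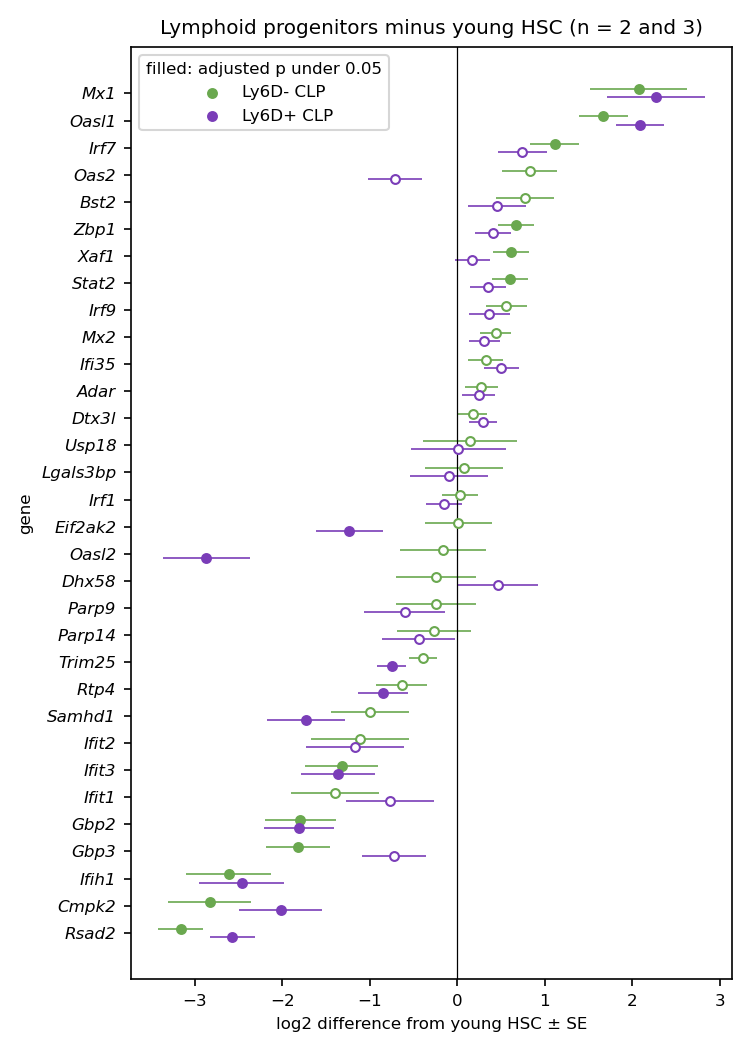
Log2 difference of Ly6D- CLP (green) and Ly6D+ CLP (purple) from young HSC (horizontal axis) for the 32 members (vertical axis, ordered by Ly6D- CLP), with SE bars from limma and filled points for an adjusted p under 0.05. Mx1 and Oasl1 lie near 2 in both, Rsad2, Cmpk2 and Ifih1 lie below -2 in both, and Oasl2 lies at -2.87 in Ly6D+ CLP and -0.17 in Ly6D- CLP.

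The members lowest in CLP were effectors and an RNA sensor. Rsad2 read 147 and 283 in Ly6D- CLP, 301 and 332 in Ly6D+ CLP, and 2089, 1698 and 2103 in young HSC. It fell in both, at -3.16 ± 0.26 (limma adjusted p = 2.11e-06) and -2.57 ± 0.26 (limma adjusted p = 1.10e-05), the smallest p of the list in each. Its dimmer probe sets fell less, at -1.24 and -0.225 in Ly6D- CLP and at -1.81 and -0.35 in Ly6D+ CLP. Cmpk2 read 115 and 60.2, then 189 and 134, against 847, 608 and 653, at -2.83 ± 0.48 (limma adjusted p = 0.000915) and -2.02 ± 0.48 (limma adjusted p = 0.00748). Ifih1, the sensor MDA5 of long double-stranded RNA, read 757 and 179, then 495 and 345, against 2226, 2348 and 2503. It fell in both, at -2.61 ± 0.49 (limma adjusted p = 0.00183) and -2.47 ± 0.49 (limma adjusted p = 0.00249).

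Gbp2 read 458 and 205 in Ly6D- CLP, 442 and 209 in Ly6D+ CLP, and 1162, 1105 and 1060 in young HSC. It fell in both, at -1.79 ± 0.40 (limma adjusted p = 0.00592) and -1.81 ± 0.40 (limma adjusted p = 0.00543). Gbp3, near it on chromosome 3, fell in Ly6D- CLP at -1.82 ± 0.37 (limma adjusted p = 0.00312), with 376 and 463 against 1588, 1592 and 1371. In Ly6D+ CLP Gbp3 read 631 and 1313, at -0.72 ± 0.37 (limma adjusted p = 0.182). Ifit3 fell in both, at -1.32 ± 0.42 (limma adjusted p = 0.0360) and -1.36 ± 0.42 (limma adjusted p = 0.0310). Its call in Ly6D- CLP was lost in 10 of 17 alternative fits. Without Ly6D- array 2 the difference of Ifit3 there was -0.58 and did not pass. Gbp2 in Ly6D- CLP was -1.24 without that array and did not pass either.

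In Ly6D+ CLP Oasl2, an OAS-like protein with ubiquitin-like domains, fell most. It read 134 and 17.1 there, the latter below background, against 580, 443 and 482 in young HSC, at -2.87 ± 0.49 (limma adjusted p = 0.000952). Samhd1 fell by 1.73 on the log2 scale (SE 0.44, limma adjusted p = 0.0119), with 196 and 307 against 983, 715 and 882, though another of its probe sets differed by 0.11. Eif2ak2 read 18.5 and 74.7 against 116, 114 and 116, at -1.23 ± 0.38 (limma adjusted p = 0.0319). Trim25 and Rtp4 fell by 0.75 and 0.85 (limma adjusted p = 0.00436 and 0.0491), at 3514 and 2695 and at 658 and 724. The other probe sets of Trim25 differed by -0.71 and, in the opposite direction, by 0.63. Without Ly6D+ array 2 the members called in Ly6D+ CLP numbered 6 in place of 12, and Mx1, Cmpk2 and Gbp2 were among those lost. That array had a log2 ratio of 3′ to 5′ actin signal of 3.85, against 2.11 to 2.52 on the other CLP arrays, and its part in the count was not tested. Samhd1 lost its call without Ly6D+ array 1.

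The CLP fractions themselves differed in 2 members, both of the OAS family and lower in Ly6D+ CLP, and 0 members were higher, where 1.19% of the tested genes were lower and 1.49% higher (limma). Oasl2 read 134 and 17.1 in Ly6D+ CLP against 429 and 455 in Ly6D- CLP, at -2.70 ± 0.54 (adjusted p = 0.0188 in limma). Oas2 read 105 and 110 against 265 and 445, at -1.54 ± 0.34 (adjusted p = 0.0317 in limma). Oasl1, whose gene lies beside Oasl2 on chromosome 5, differed by 0.42 and its arrays overlapped. Both calls were lost with array weights, in a fit of only the CLP arrays, and without Ly6D- array 2.

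Of the wider pathway lists 116 genes passed the filter in the CLP comparisons. In Ly6D- CLP 11 were higher (9.48%) and 24 lower (20.7%), beside 9.55% and 14.9% of all tested genes. In Ly6D+ CLP 12 were higher (10.3%) and 26 lower (22.4%), beside 10.4% and 13.9%. Irf8, a factor of myeloid and lymphoid progenitors, read 3197 and 4031 in Ly6D- CLP, 3202 and 4155 in Ly6D+ CLP and 40.2 to 79.4 in young HSC, at 5.71 and 5.73 (limma adjusted p = 1.13e-06 and 7.72e-07). Ifnar2 rose by 1.28 and 0.87 (limma adjusted p = 0.00512 and 0.0380). The membrane protein Ifitm1 fell, at -2.06 and -2.96 on the log2 scale, and so did Slfn2, which guards lymphocyte quiescence, at -3.46 and -3.55. Of 8 GTPases of the interferon gamma response 5 were lower in each fraction, among them Iigp1 and Irgm2. Tlr7, a sensor of single-stranded RNA, read 168 and 217 in Ly6D- CLP and 110 and 61.4 in Ly6D+ CLP, and 13.8 to 15.3, not above background, in young HSC.

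Summed plasmacytoid dendritic cell markers were 6418 to 7412 in Ly6D- CLP, 5195 to 6263 in Ly6D+ CLP and 1006 to 1217 in young HSC. The member Bst2 was left out of this sum, and Irf8 was the largest part of it in CLP, at 3197 to 4155. Monocyte and macrophage markers summed to 3263 to 4557, 3397 to 3838 and 703 to 1114, most of it Mpeg1 in CLP. Of the 12 markers of that list 4 had a positive difference in Ly6D- CLP and 3 in Ly6D+ CLP, and of 11 tested 1 was called higher in each, with 1 and 2 called lower. Siglech was 26.4 to 52.2 on the CLP arrays and 22.2 to 29.9 on the young arrays. Neutrophil markers summed to 206 to 4576 in Ly6D- CLP, 204 to 250 in Ly6D+ CLP and 1139 to 5450 in young HSC. S100a8 read 16.1 on Ly6D- array 1 and 1371 on Ly6D- array 2. The part of such cells in the CLP values was not tested.

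Members that lie side by side in the genome did not all move alike. Rsad2 and Cmpk2 had differences of like sign in the mutator, the 32-week and both CLP comparisons, and so did Ifit2 and Ifit3. Oasl2 and Oasl1 had opposite signs in both CLP comparisons, -0.17 and 1.67 in Ly6D- CLP and -2.87 and 2.09 in Ly6D+ CLP.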

How the data were processed

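The deposited values are probe set intensities on a linear scale, 1 column per array. The labels' protocols name a microRNeasy kit for the RNA and biotin labelling of cRNA by Affymetrix's own procedure. How the authors summarised, background-corrected and normalized them is not given in the sources used here. Arrays have no read depth, and the number of arrays limits the precision.

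Intensities were used as deposited and taken to log2(intensity + 16), so the change of low genes is understated. Of the probe sets, 34945 carried 1 gene symbol, 932 several and 9211 none, and 64 were controls. Genes above the 40th percentile of the array on at least 3 of 12 HSC arrays (13481 genes) or at least 2 of 16 arrays (14343 genes) were tested, and all 32 measured members passed both filters. Tests came from limma (version 3.58.1, R version 4.3.3; lmFit, then eBayes) on a model of group means, with Benjamini-Hochberg adjustment over all genes tested and a threshold of 0.05, after the procedure was tested on simulated data. CLP comparisons used all 16 arrays and HSC comparisons the 12 HSC arrays. Intensities are given for each array, with the limma standard error (SE) beside log2 differences.

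Members and lists were chosen with earlier results of these data known. Full statistics are given for the 10 members of smallest p in mutator against 32-week wild-type HSC, and elsewhere for up to 6 members past the threshold with the largest change in each direction, or the 2 of smallest p. Stat2, Irf7, Irf9, Usp18, Rsad2, Rtp4 and Trim25 were always named, and others of each wider list by size of change. Marker genes and a few members were named after their values were seen. Alternatives changed the normalization, filter, pseudocount, probe set, weights, samples and blocks. Deviations of same-numbered arrays from their group means correlated at 0.329, 0.077 and -0.062 in mutator and 32-week wild-type HSC and at 0.509, 0.422 and -0.012 in old and young HSC. Not every pair exceeded 0.1, so the numbers were not taken to pair samples.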

Additional observations from a re-analysis of the deposited data

How the results depend on the processing

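Of 46 results named by gene, 937 alternatives gave 825 of the same direction and side of the threshold, 88 that no longer passed, 5 that newly passed and 19 of opposite sign; the causes were not tested unless stated. In mutator against 32-week wild-type HSC, the count of members called by limma was 0 to 2 when 1 array was left out and the median 0.121 to 0.453, and 0.161 with array weights. Leaving out wild-type arrays 1 and 3 gave a median of 0.088 and Samhd1 at -0.035. Leaving out both arrays with high hybridisation controls gave Samhd1 at -0.059, and Stat2 at 0.015. Stat2 was -0.181 to 0.075 without 1 array, with the positive value without mutator array 1. In old against young HSC 0 members passed in each fit without 1 array (median -0.025 to 0.185), 4 with array weights and 3 in a fit of only those groups. In 32-week wild-type against young HSC the fits without 1 array called 9 to 17 members, with medians of -0.747 to -0.473. That median was -0.391 after quantile normalization, -0.481 for the mean of all probe sets, -0.517 with array weights, -0.473 without the high-control arrays and -0.491 with the control level as a block. The actin ratio as covariate gave 0 members and a median of 0.050, with Adar at -0.239, Gbp3 at 0.023, Ifit2 at 2.26, Parp9 at 0.352 and Usp18 at 0.425. This ratio was higher on every 32-week array than on every young or old array, so the covariate overlaps with the comparison by construction. The mutator effect minus the age effect called 1 member with array weights and 0 in each fit without 1 array. Its median was 0.444 with the actin ratio, 0.070 with array weights, 0.107 for the mean of all probe sets, 0.128 at a pseudocount of 64 and 0.027 to 0.435 without 1 array. In Ly6D- CLP against young HSC fits without 1 array called 8 to 11 members (median -0.060 to 0.034), and quantile normalization gave a median of 0.118. In Ly6D+ CLP they called 6 to 10 (median -0.320 to -0.168), and the mean of all probe sets gave -0.155. Between the CLP fractions 0 were called with array weights, 0 in a fit of only CLP, and 0 to 3 without 1 array. Other probe sets gave the opposite sign for Rsad2 (-0.058), Dtx3l (-0.014) and Samhd1 (-0.229, -0.246 and -0.108) in the mutator comparison. They also did so for Eif2ak2 (0.147 and 0.292) in old HSC. At 32 weeks they did so for Ifi35 (-0.647), Adar (-0.926) and Samhd1 (0.309, 0.361 and 1.07). In Ly6D+ CLP they did so for Samhd1 (0.107) and Trim25 (0.633). With the replicate number as a block the counts of members called were 0, 0, 16, 0, 13, 9 and 2 in the order above, and Ifit3 in Ly6D- CLP (-1.23) no longer passed. Same-numbered arrays did not all deviate together, so the block is a check and no paired design. The alternatives on hybridisation controls, on wild-type arrays 1 and 3, and on young arrays 2 and 3 (correlated at 0.996) as 1 sample were chosen after seeing the data. Where a fit left a group with 1 array, that array was assumed to vary like the other groups. Low signal limits Mx1, Mx2 and the interferon genes, which lay near background.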
